A study of Mus musculus with 16 samples.

Results

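The 6 genes described here, Lrp1, Vldlr, Cd36, Apoe, Lpl and Abca1, carry lipoproteins and their lipids into and out of cells, and were read by symbol from the 31055 features of single-cell RNA libraries of the mouse thoracic aorta. All 6 were found. Each of the 16 libraries came from 1 male mouse of the 129S6/SvEv strain, and cells from the aortic root to the left subclavian artery were dissociated for 30 or 60 min, sorted as live nucleated cells, and sequenced from the 3′ end of the RNA with unique molecular identifiers (UMIs), which count RNA molecules. Levels are UMIs of a gene scaled to an equal total of UMIs (CPM, with a total of 1e6), summed over the cells of a class in a library, and are compared within a gene only. The plot for each member shows 1 point per library and class.

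Smad3 is an intracellular mediator that carries the TGF-beta signal to the nucleus. In Smad3SmKO mice both copies were flanked by lox sites, and control mice were Smad3+/+. All mice carried the tamoxifen-inducible Myh11-CreER transgene, which is expressed in smooth muscle and lies on the Y chromosome, and all received tamoxifen at 6 weeks of age, so the controls carried the Cre and the drug as well. At 10 weeks after deletion there were 2 Smad3+/+ and 2 Smad3SmKO libraries, all digested for 60 min in batch 4, and at 18 weeks there were 5 Smad3+/+ and 7 Smad3SmKO libraries in batches 1, 2, 3, 5 and 6. Batch 5 held only Smad3SmKO 18wk replicates 5 and 7, so in fits with batch as a term these 2 did not inform the genotype difference. Some mice also carried a GFP tracer, labelled Myh11-GFP. Smad3 UMIs in vascular smooth muscle cells (VSMCs) ranged from 2.83 to 9.89 CPM in Smad3+/+ and from 4.04 to 17.3 CPM in Smad3SmKO libraries of 18 weeks, so these counts did not separate the genotypes. Tags from the 3′ end may lie outside the deleted part and then check nothing, and genotypes below are those of the labels.

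The libraries held 66349 barcodes, 788 to 7756 each, of which 50858 passed the limits of the study's methods. Smad3SmKO 18wk replicate 7 had the fewest barcodes. In 4 libraries GFP UMIs went against the tracer label: both Smad3SmKO 10wk libraries, labelled as having none, held 246 and 165, and Smad3+/+ 18wk replicates 4 and 5, labelled with it, held 0. Kept cells in different libraries shared 315 barcode sequences, at most 11 between a pair.

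Lipoproteins carry cholesterol and triglyceride in blood and tissue fluid. Lrp1 and Vldlr are receptors of the low-density lipoprotein receptor family that take up particles bearing apolipoprotein E, and Cd36 is a scavenger receptor and fatty acid transporter. Apoe encodes that apolipoprotein, Lpl encodes the lipase that frees fatty acids from triglyceride-rich particles, and Abca1 moves cholesterol out of cells onto lipid-poor apolipoproteins. In the artery wall, macrophages and VSMCs that take up more cholesterol than they release become foam cells, and Lrp1 in VSMCs is known to protect the wall from dilation.

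Cells were put into classes by marker genes outside the 6 members. There were 8950 VSMCs (Myh11 of at least 5 UMIs and above Dcn), 36066 fibroblasts (Dcn of at least 5 and above Myh11), 3303 cells with at least 2 UMIs of Pecam1 and Cdh5, and 3357 leukocytes (at least 2 of Ptprc and Tyrobp), 1878 of them C1q macrophages (at least 5 UMIs of C1qa, C1qb and C1qc). The Pecam1 and Cdh5 rule went against its endothelial name, because 1813 of its 3303 cells met the fibroblast rule as well. Its cells held a median of 13221 CPM of 8 fibroblast markers (5050 to 21836 over 16 libraries) and 1305 CPM of 8 endothelial markers. In the 1226 cells that met the Pecam1 and Cdh5 rule and no other, the fibroblast markers fell to a median of 1385 CPM (325 to 2447 over the 15 libraries with at least 10 such cells) and the endothelial markers stood at 4458 CPM. Those 1226 cells are called endothelium below, the full set is called the Pecam1/Cdh5 cells, and levels by class are given for cells that met exactly 1 rule (8648 VSMCs, 33954 fibroblasts and 2946 leukocytes beside the endothelium).

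The 3 receptors each stood highest in a different class. The 250 bases before their starts are shown, with those of Abca1, which carried the most motif matches. Whether these bases bear on the levels by class was not tested. Lrp1 lies at chr10:127538161-127621148 on the minus strand, Vldlr at chr19:27216484-27254231 on the plus strand, Cd36 at chr5:17781690-17888801 on the minus strand, Apoe at chr7:19696109-19699188 on the minus strand, Lpl at chr8:68880491-68907448 on the plus strand and Abca1 at chr4:53030787-53159895 on the minus strand (mm10, GENCODE vM21, all protein coding). The windows are from RefSeq (GRCm38.p6), written 5′ to 3′ in the direction of the gene, at chr10:127621149-127621398 (Lrp1, minus strand), chr19:27216234-27216483 (Vldlr, plus strand), chr5:17835897-17836146 (Cd36, minus strand) and chr4:53159896-53160145 (Abca1, minus strand). The table held windows for 5 of the 6 members, without Lpl. The Cd36 window starts 52905 bases inside the GENCODE gene, which has transcripts that begin farther upstream, and Vldlr had 2 windows, of which the outermost is shown. Capitals mark motif matches on either strand: the GC box GGGCGG, the TATA box TATAAA, the sequence CCAAT, and a DR4-type direct repeat of the kind that liver X receptors bind, searched as GGTNA, any 5 bases and GGTCA.
Lrp1: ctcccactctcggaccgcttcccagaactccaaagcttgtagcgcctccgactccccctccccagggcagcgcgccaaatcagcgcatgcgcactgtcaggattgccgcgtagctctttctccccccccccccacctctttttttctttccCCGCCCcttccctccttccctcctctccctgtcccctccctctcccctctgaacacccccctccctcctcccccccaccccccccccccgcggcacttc
Vldlr: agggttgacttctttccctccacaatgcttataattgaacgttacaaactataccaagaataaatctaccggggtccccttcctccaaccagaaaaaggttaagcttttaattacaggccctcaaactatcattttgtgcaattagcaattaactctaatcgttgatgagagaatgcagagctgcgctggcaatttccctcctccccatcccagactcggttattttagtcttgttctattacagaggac
Cd36: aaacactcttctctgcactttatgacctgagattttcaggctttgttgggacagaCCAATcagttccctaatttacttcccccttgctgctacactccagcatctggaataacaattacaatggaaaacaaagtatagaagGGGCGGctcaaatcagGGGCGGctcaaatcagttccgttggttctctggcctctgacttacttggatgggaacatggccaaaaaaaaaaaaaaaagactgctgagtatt
Abca1: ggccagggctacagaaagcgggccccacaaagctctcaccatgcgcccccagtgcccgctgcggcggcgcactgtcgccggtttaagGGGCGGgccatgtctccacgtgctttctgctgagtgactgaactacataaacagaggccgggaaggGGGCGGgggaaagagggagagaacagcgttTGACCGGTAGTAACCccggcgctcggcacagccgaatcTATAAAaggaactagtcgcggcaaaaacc
The Lrp1 window had 67.2% G or C and 1 GC box, which began 99 bases before the start on the opposite strand. The Vldlr window had 41.6% G or C and no match to the 4 patterns. The Cd36 window had 43.2% G or C, GC boxes at 109 and 93 bases and a CCAAT at 195 bases. The Abca1 window had 61.6% G or C, GC boxes at 163 and 97 bases, a TATA box at 29 bases and the DR4-type pattern at 67 bases on the opposite strand. Apoe had 3 windows, and the one at the annotated 5′ end of the gene, the one of the 3 that was searched, had 57.2% G or C and no match. Of 32851 such windows, 32.7% held a GC box, 12.4% a TATA box, 33.8% a CCAAT and 0.177% the DR4-type pattern.

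Lrp1, the large endocytic receptor, was a fibroblast-rich transcript. Over 16 libraries its level in fibroblasts was 399 CPM at the lowest, 525 at the median and 842 at the highest, against 73.9, 141 and 231.6 CPM in VSMCs. Every fibroblast level lay above every VSMC level. Leukocytes held 42.1, 72.9 and 202 CPM and endothelium 3.75, 39.7 and 137 CPM, in the same order, and these overlapped each other. In these cells Lrp1 was lower in VSMCs than in fibroblasts on the log2 scale by edgeR's quasi-likelihood test with the library as a block, −1.98 (SE 0.18, adjusted p = 6.8e-14), a 3.94-fold difference. VSMCs stood above the endothelium by 1.87 (SE 0.22, adjusted p = 2.0e-10 by the same test). Against the Pecam1/Cdh5 cells the sign turned, to −1.16 (SE 0.13), and those cells held the fibroblast markers given above. VSMCs and leukocytes differed by 0.05 (95% interval −0.22 to 0.33) over all their cells and by 0.48 (0.10 to 0.87) over cells of exactly 1 class.

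The neighbours in the order of Lrp1 levels below the VSMCs, leukocytes and endothelium, differed by 1.39 on the log2 scale (endothelium minus leukocytes −1.39, SE 0.23, adjusted p = 5.2e-07 by edgeR's quasi-likelihood test). In VSMCs Lrp1 was found above its level in T cells and neutrophils, read here as the level of free RNA. With every cell thinned to 2000 UMIs, 27.3% of VSMCs would show a Lrp1 UMI (67.8% unthinned, median depth 10825 UMIs), against 3.26% of 92 T cells (5.43% unthinned, 5529 UMIs) and 6.52% of 831 neutrophils (11.9% unthinned, 2934 UMIs). In the endothelium 4.20% of cells would show Lrp1 (8.48% unthinned), between the shares of T cells and neutrophils. T cells and neutrophils were not limited to cells of exactly 1 class. They held medians of 1958 CPM (1 library) and 3090 CPM of the 8 fibroblast markers. The part of fibroblast RNA in their shares was not tested, so Lrp1 in the endothelium could not be told from background by this measure. Fibroblasts, 72.6% of the cells of exactly 1 class, held 92.3% of the Lrp1 UMIs.

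Vldlr, which binds triglyceride-rich particles and Apoe, was the member with its highest level in VSMCs. The lowest, median and highest VSMC levels were 27.5, 74.7 and 136 CPM, against 9.62, 19.6 and 42.8 CPM in fibroblasts. The ranges overlapped, but within a library VSMCs were higher in 16 of 16. The log2 difference was 1.90 (SE 0.12, adjusted p = 1.0e-20, edgeR's quasi-likelihood test). Endothelium reached at most 12.7 CPM and leukocytes at most 5.17 CPM. VSMCs exceeded endothelium by 4.79 on the log2 scale (SE 0.24), and held 50.7% of the Vldlr UMIs in 18.5% of the cells. At 2000 UMIs per cell 14.1% of VSMCs (43.9% unthinned) would show Vldlr, against 0.706% of T cells (2.17%) and 0.636% of neutrophils (3.13%).

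Cd36 was concentrated in the endothelium. Its lowest, median and highest levels there were 564, 1429 and 2167 CPM over 15 libraries, against 0.236, 1.25 and 2.31 CPM in fibroblasts. The endothelium, 2.62% of the cells, held 89.1% of the Cd36 UMIs. The log2 difference between fibroblasts and endothelium was −9.92 (SE 0.36, edgeR's quasi-likelihood test), and leukocytes lay between them at 13.0, 59.4 and 164 CPM. VSMCs held 0, 0.844 and 43.7 CPM and did not differ from fibroblasts by edgeR's quasi-likelihood test, at 0.62 (95% interval −0.23 to 1.47, adjusted p = 0.19). In VSMCs 0.345% of cells would show Cd36 at 2000 UMIs (0.860% unthinned), between the 0% of T cells (0 of 92, which allows up to 3.26% of cells with a UMI) and the 0.658% of neutrophils (0.722% unthinned), so Cd36 in VSMCs could not be told from background at this depth.

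Apoe was high in leukocytes and fibroblasts. Fibroblasts held 1450, 3870 and 5601 CPM and leukocytes 964, 4206 and 8827 CPM at the lowest, median and highest library, and these 2 classes did not differ by edgeR's quasi-likelihood test (fibroblasts minus leukocytes −0.31, 95% interval −0.70 to 0.09, adjusted p = 0.15). VSMCs held 50.1, 143 and 699.7 CPM and lay below fibroblasts on the log2 scale (VSMCs minus fibroblasts −4.45, SE 0.23, adjusted p = 1.8e-23). Endothelium was between, at 198, 521 and 1426 CPM. At 2000 UMIs per cell 15.4% of VSMCs would show Apoe (38.1% unthinned), against 17.6% of T cells (33.7%) and 17.7% of neutrophils (23.8%). Those 2 sets were not limited to cells of exactly 1 class. Their 8 fibroblast markers had medians of 1958 CPM in T cells (1 library) and 3090 CPM in neutrophils. In leukocytes of exactly 1 class the median was 441 CPM. The part of fibroblast RNA in the 2 shares was not tested, so over VSMCs as a whole Apoe could not be told from background.

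Lpl stood highest in the endothelium and next in fibroblasts. The endothelium held 88.9, 279 and 975 CPM and fibroblasts 48.3, 143 and 419 CPM, with overlapping ranges, and in 13 of 15 libraries the endothelium was higher. The log2 difference, fibroblasts minus endothelium, was −0.81 (SE 0.26, adjusted p = 0.0053, edgeR's quasi-likelihood test) in cells of exactly 1 class and 0.35 (SE 0.23, adjusted p = 0.26) against the Pecam1/Cdh5 cells. Leukocytes held 24.6, 53.8 and 231.99 CPM and VSMCs 2.48, 8.76 and 31.1 CPM. VSMCs lay below fibroblasts (VSMCs minus fibroblasts −4.19, SE 0.30). At 1.07% of cells at 2000 UMIs they lay between T cells (1.06% of 92 cells) and neutrophils (1.33%). The T cells held only 9 Lpl UMIs, and both sets held the fibroblast markers given above. The part of fibroblast RNA in their shares was not tested, so Lpl in VSMCs could not be told from background by this measure.

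Abca1 was lowest in VSMCs. Their lowest, median and highest levels were 1.196, 3.98 and 11.9 CPM, against 11.6, 26.8 and 51.3 CPM in fibroblasts, 25.9, 45.6 and 84.0 CPM in endothelium and 7.73, 46.6 and 114 CPM in leukocytes. Endothelium lay above VSMCs in all 15 libraries with no overlap. VSMCs were lower than fibroblasts on the log2 scale (VSMCs minus fibroblasts −2.39, SE 0.16, adjusted p = 1.8e-18, edgeR's quasi-likelihood test). By the same test the fitted level in endothelium lay below that in leukocytes (endothelium minus leukocytes −0.52, SE 0.17, adjusted p = 0.0059). Within libraries, however, leukocytes were higher in only 8 of 15, with overlapping ranges. The VSMC share at 2000 UMIs, 1.22% (4.49% unthinned), lay between that of T cells, 0.342% (1.09%), and that of neutrophils, 1.38% (2.77%). The T cells held only 1 Abca1 UMI and the neutrophils 25, and both sets held the fibroblast markers given above. The part of fibroblast RNA in their shares was not tested, so Abca1 in VSMCs could not be told from background by this measure.

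With all cells of the classes as ruled, the log2 differences between VSMCs and fibroblasts were −1.90 for Lrp1 (SE 0.13), 1.95 for Vldlr (SE 0.17), 0.49 for Cd36 (SE 0.45), −4.38 for Apoe (SE 0.21), −3.98 for Lpl (SE 0.28) and −2.22 for Abca1 (SE 0.13). In cells of exactly 1 class, 34 of 36 member tests over the 6 pairs of classes passed an adjusted p of 0.05 by edgeR's quasi-likelihood test, where 70.2% of all gene and pair tests did. All 6 members passed between VSMCs and endothelium (65.8% of all genes), VSMCs and leukocytes (79.8%), fibroblasts and endothelium (61.5%) and endothelium and leukocytes (67.9%). Between VSMCs and fibroblasts 5 of 6 passed (68.1%), without Cd36, and between fibroblasts and leukocytes 5 of 6 (78%), without Apoe. With the classes as ruled 30 of 36 passed, where 67.1% did. The counts then were 5 of 6 between VSMCs and fibroblasts (70.5% of all genes), 6 between VSMCs and Pecam1/Cdh5 cells (64.9%), 5 between VSMCs and leukocytes (80%), 6 between Pecam1/Cdh5 cells and leukocytes (74.3%), 3 between fibroblasts and Pecam1/Cdh5 cells (36.2%) and 5 between fibroblasts and leukocytes (77%). Shares of this size were common to all genes, so the directions and sizes describe the members better than the counts.

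**Figure D1:**
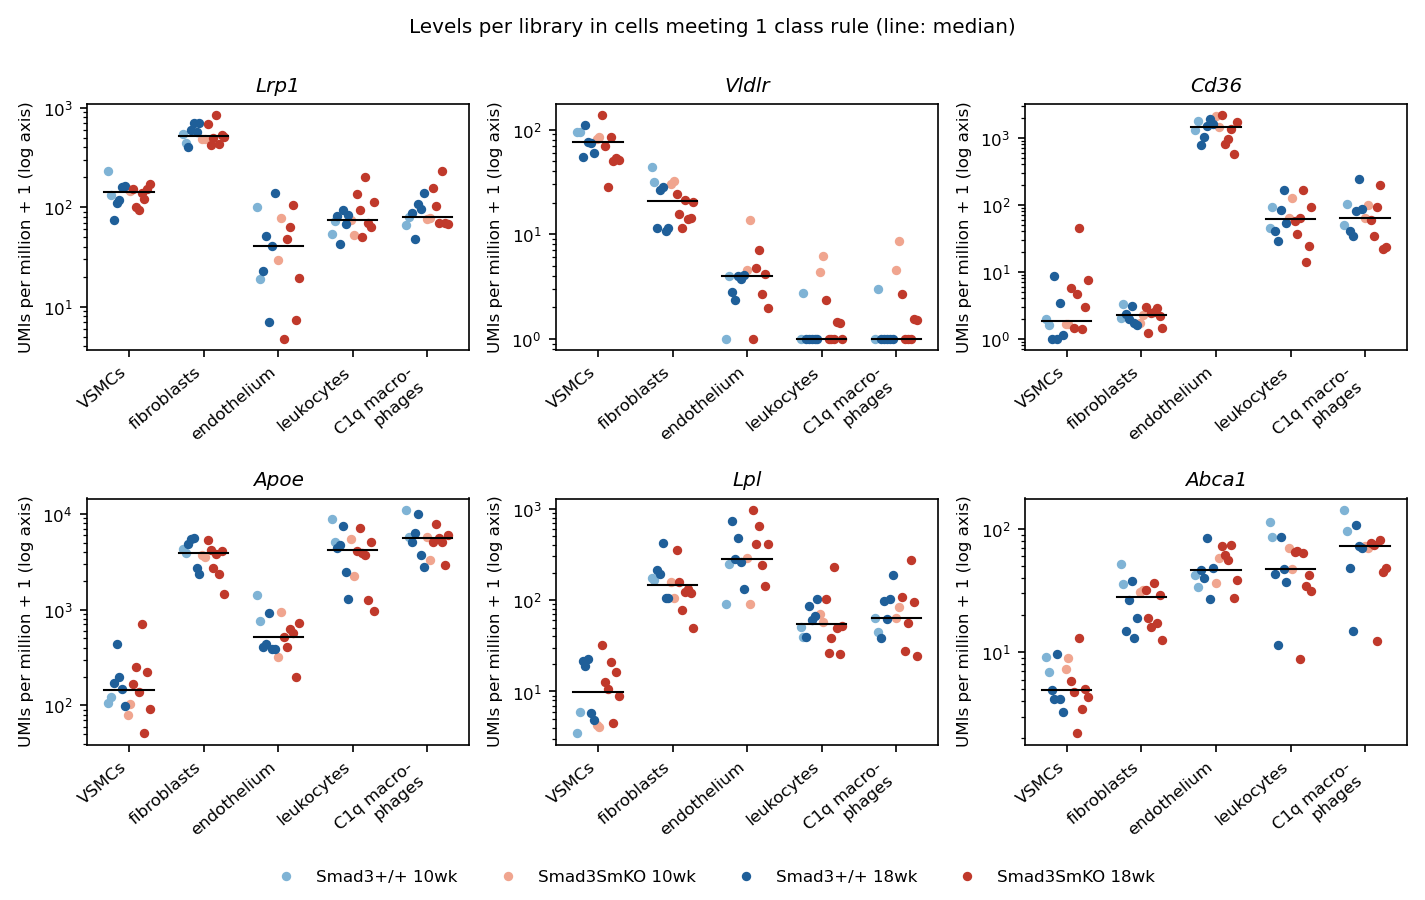
Each panel plots the CPM of 1 member, plus 1, on a log axis, in cells that met exactly 1 class rule, with 1 point per library coloured by genotype and time and a line at the median. Lrp1 is highest in fibroblasts (median 525 CPM), Vldlr in VSMCs (74.7 CPM), Cd36 in endothelium (1429 CPM), and Abca1 is lowest in VSMCs (3.98 CPM).

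The other genes of lipoprotein handling were read from a list of 83 genes. Between VSMCs and fibroblasts 74 were tested, of which 23 were higher and 39 lower in VSMCs, with a median log2 difference of −0.39 beside −0.04 for all genes. The 12 efflux and intracellular cholesterol genes went 1 up and 7 down, and the 13 sterol synthesis genes went 8 up and 4 down. Lrp4, another receptor of the family, was lower in VSMCs by 4.13 on the log2 scale (VSMCs minus fibroblasts −4.13, SE 0.18), and Angptl4, a secreted inhibitor of the lipase, stood at −4.10 (SE 0.22). Npc2, which carries cholesterol out of lysosomes, stood at −1.87 (SE 0.09) and Lipa, the lysosomal acid lipase, at −1.41 (SE 0.07). Acsl1, which activates fatty acids, was higher in VSMCs by 2.46 (SE 0.12).

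The lipase Lpl works on the capillary wall, where Gpihbp1 holds it on endothelial cells, so the endothelium was split by Gpihbp1. Of the 1226 cells, 861 held a Gpihbp1 UMI and 365 held none. Over the 14 libraries with at least 10 cells of both, Lpl was 152, 379 and 1300 CPM in cells with Gpihbp1 at the lowest, median and highest library, and 0, 16.7 and 149 CPM in cells without. No level of the first overlapped the second, and Lpl was higher in 14 of 14 libraries. The log2 difference was 4.19 (SE 0.37, adjusted p = 1.9e-08, edgeR's quasi-likelihood test), or 18.3-fold. Cells without Gpihbp1 held only 95 Lpl UMIs, and a gene this low there passes the filter on low counts through the group where it is high. The test of Lpl is therefore given as a description.

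Cd36 moved with Lpl. It stood at 1029, 2151 and 3031 CPM with Gpihbp1 and 0, 103 and 455 CPM without, again with no overlap, a log2 difference of 3.92 (SE 0.26, adjusted p = 3.2e-10, edgeR's quasi-likelihood test). Abca1 rose by 0.45 (SE 0.17, adjusted p = 0.046) and was higher in 11 of 14 libraries. Apoe differed by 0.29 (95% interval −0.30 to 0.87, adjusted p = 0.49) and was higher in 10 of 14. Lrp1, which passed no filter on low counts here, had medians of 7.29 CPM with and 108 CPM without Gpihbp1 and was higher with it in 2 of 14 libraries.

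Of the 4 members tested in that split 3 passed, Lpl among them with the limit given above, where 31% of 3785 genes did. Over all Pecam1/Cdh5 cells 5 of 5 tested passed, where 61.4% of 6230 genes did, and there Lrp1 was lower with Gpihbp1 (−3.39, SE 0.21) and Apoe lower (−1.14, SE 0.20), while Cd36 stood at 6.48 (SE 0.28), Lpl at 3.04 (SE 0.27) and Abca1 at 1.08 (SE 0.14). In the endothelium the 8 fibroblast markers stood at a median of 270 CPM with Gpihbp1 (range 155 to 580) and 3194 CPM without it (487 to 7608). In the Pecam1/Cdh5 cells their medians were 1999 CPM (155 to 4145) and 16000 CPM (5530 to 24899). The 5 pericyte markers stood at 585 CPM with Gpihbp1 (92.8 to 2376) and 108 CPM without it (0 to 1401) in the endothelium. The 8 fat markers stood at 92.8 CPM with Gpihbp1 (51.2 to 174) and 17.3 CPM without it (8.13 to 68.6), and the 8 heart muscle markers at 73.7 CPM (22.4 to 243) and 8.84 CPM (0 to 114). Without cells holding heart muscle or fat markers, the log2 differences over the Pecam1/Cdh5 cells were 6.44 for Cd36 (SE 0.28), 3.01 for Lpl (SE 0.26) and 1.07 for Abca1 (SE 0.14). Among the Pecam1/Cdh5 cells, 273 held at least 2 UMIs of the lymphatic genes Lyve1, Prox1 and Mmrn1, and 39.6% of these held Gpihbp1. In the 10 libraries with at least 10 such cells, their medians were 53.2 CPM for Cd36 and 56.5 CPM for Lpl. The part of fibroblasts, pericytes and lymphatic cells in the differences was not tested.

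Of the 83 listed genes, 25 could be tested in the endothelium, with 12 higher and 5 lower in cells with Gpihbp1 (median 0.34, all genes −0.01). Gpihbp1 itself, which made the split, is on the list and among the 12. All 5 tested genes of fatty acid uptake and storage were higher. Fabp4 and Fabp5, which bind fatty acids in the cell, stood at 4.00 (SE 0.27) and 3.29 (SE 0.24) on the log2 scale. Mgll, which splits monoglycerides, stood at 2.64 (SE 0.18), and Cav1, the coat protein of caveolae, at 1.37 (SE 0.10).

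**Figure D2:**
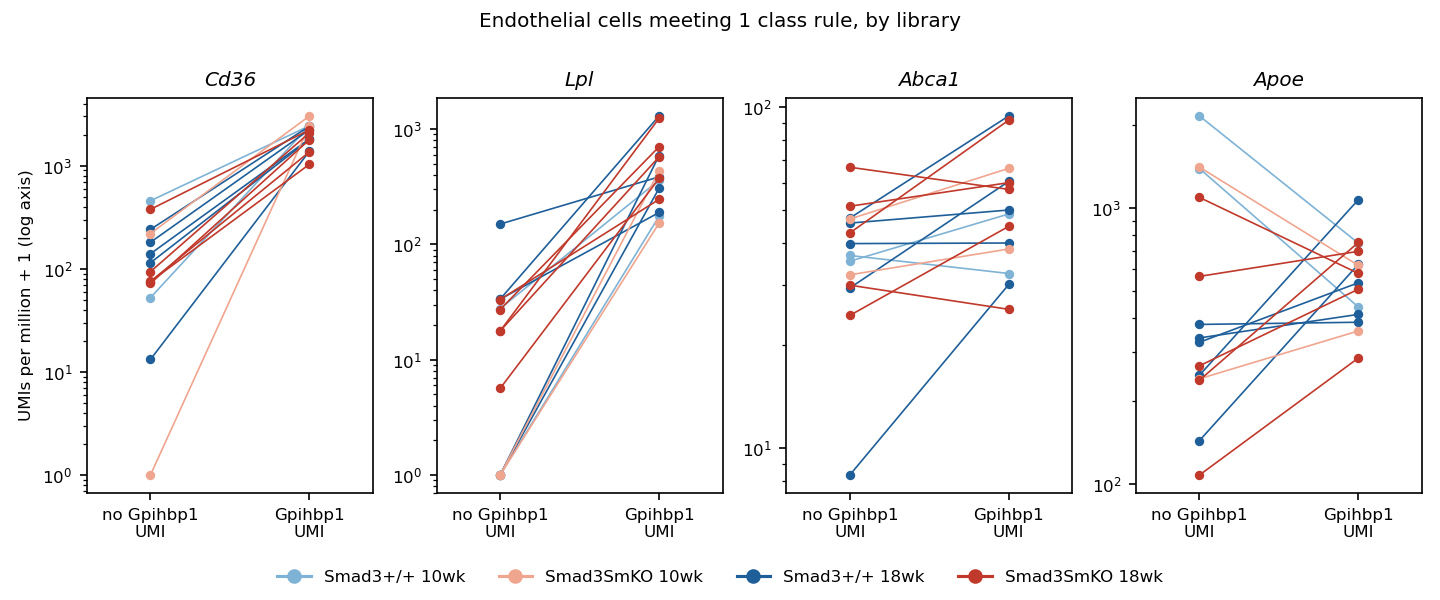
Each panel plots the CPM of 1 member, plus 1, on a log axis, in endothelial cells of exactly 1 class without and with a Gpihbp1 UMI, with a line joining the 2 values of each library. The lines for Cd36 and Lpl rise in 14 of 14 libraries, those for Abca1 in 11 and those for Apoe in 10.

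VSMCs were split by a pair of gene sets that mark VSMC subsets of the aorta, Notch3 with Enpep (541 cells) and Ptprz1 with Tes (4605 cells), taking cells with at least 2 UMIs of one pair and more than of the other. Apoe differed between them. In the 14 libraries with at least 10 cells of both it stood at 100.0, 362 and 668 CPM in Notch3/Enpep VSMCs and 28.5, 73.6 and 247 CPM in Ptprz1/Tes VSMCs, at the lowest, median and highest. It was higher in 13 of 14 libraries, with overlap of the ranges. The log2 difference was 2.14 (SE 0.25, adjusted p = 3.6e-07, edgeR's quasi-likelihood test), or 4.41-fold. At 2000 UMIs 32.1% of Notch3/Enpep VSMCs would show Apoe (59.1% unthinned, median depth 11078 UMIs) and 11.4% of Ptprz1/Tes VSMCs (34.9%, 12192 UMIs), on either side of the 17.6% of T cells.

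Lrp1 went the other way, at 27.9, 94.6 and 160 CPM in Notch3/Enpep VSMCs and 87.7, 144 and 220 CPM in Ptprz1/Tes VSMCs. It was lower in the first in 13 of 14 libraries, by 0.53 (Notch3/Enpep minus Ptprz1/Tes −0.53, SE 0.10, adjusted p = 3.4e-04, edgeR's quasi-likelihood test). Vldlr stood at 18.6, 57.6 and 174 CPM against 29.3, 70.8 and 118 CPM, a difference of −0.02 (95% interval −0.29 to 0.24). So among the receptors of VSMCs, Lrp1 differed between the subsets and Vldlr did not pass the test.

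Lpl fell under the filter on low counts there, and its values are given as a description. It was 13.4, 27.3 and 81.6 CPM in Notch3/Enpep VSMCs and 0, 2.13 and 43.9 CPM in Ptprz1/Tes VSMCs, higher in 13 of 14 libraries, and 5.59% against 0.464% of cells would show it at 2000 UMIs. In cells of exactly 1 class it passed the filter, at 3.598 (SE 0.27) on the log2 scale, where 22.8% of 6366 genes passed the test, but a gene this low passes the filter through the group where it is high. Of the 3 members tested 2 passed, where 25.8% of 5719 genes did.

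Markers of other cells moved with the subsets, here over all libraries with at least 10 cells (16 for Notch3/Enpep and 14 for Ptprz1/Tes). The 8 heart muscle markers had a median of 374 CPM (range 180 to 1199) in Notch3/Enpep VSMCs and 95.8 CPM (17.6 to 229) in Ptprz1/Tes VSMCs, and the 8 endothelial markers 110 CPM (34.7 to 428) and 23.2 CPM (15.2 to 81.5). The 5 pericyte markers stood at 549 CPM (135 to 2860) and 419 CPM (291 to 905), the 8 fat markers at 90.9 CPM (33.5 to 139) and 108 CPM (53.5 to 187.4), and the 8 fibroblast markers at 1686 CPM (985 to 3603) and 2040 CPM (1587 to 2850). The 8 macrophage markers, a class rich in Apoe, stood at 8.42 CPM (0 to 127) and 18.0 CPM (0.885 to 243), with all 8 at 0 in at least 1 Notch3/Enpep library. Without cells holding heart muscle or fat markers, Apoe stood at 2.27 (SE 0.26) and Lrp1 at −0.52 (SE 0.10) over 13 libraries. Of the 35 listed lipid genes tested, 3 were higher and 6 lower in Notch3/Enpep VSMCs (median −0.10, all genes −0.003). Fabp5 stood at 1.46 (SE 0.21) and Sort1, a sorting receptor that also binds Lpl, at 0.85 (SE 0.15), while Fabp3 stood at −1.05 (SE 0.19) and Pltp, which transfers phospholipid between particles, at −1.24 (SE 0.31).

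**Figure D3:**
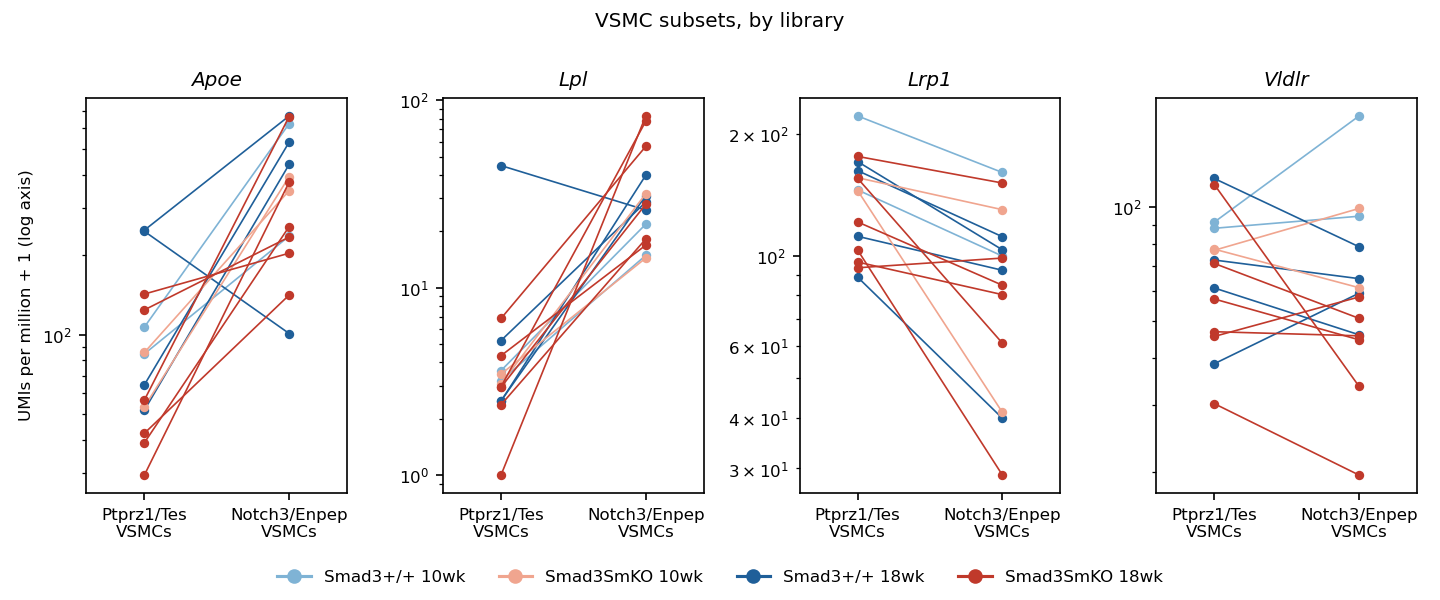
Each panel plots the CPM of 1 member, plus 1, on a log axis, in Ptprz1/Tes and Notch3/Enpep VSMCs, with a line joining the 2 values of each library. Apoe and Lpl are higher in Notch3/Enpep VSMCs in 13 of 14 libraries each, Lrp1 is lower in 13 of 14, and Vldlr is higher in 5 of 14.

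Fibroblasts were split by Pi16 and Dpp4, which mark adventitial fibroblasts (27610 cells with at least 2 UMIs of the pair, 5147 with none). Lrp1 was 424, 557 and 856 CPM with them and 277, 419 and 684 CPM without, at the lowest, median and highest of 16 libraries, and was higher in 16 of 16 although the ranges overlapped. The log2 difference was 0.50 (SE 0.04, adjusted p = 6.9e-09, edgeR's quasi-likelihood test), or 1.42-fold. Abca1 rose with it, at 7.55, 27.3 and 51.9 CPM against 8.38, 15.2 and 43.1 CPM, higher in 14 of 16, by 0.60 (SE 0.10, adjusted p = 5.7e-05).

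Apoe went down, at 2033, 3119 and 4921 CPM with Pi16 and Dpp4 and 1369, 4873 and 10082 CPM without. It was lower in 15 of 16 libraries (−0.71, SE 0.10, adjusted p = 1.6e-05, edgeR's quasi-likelihood test). Vldlr was lower in 15 of 16 as well (−0.38, SE 0.11, adjusted p = 0.0083), and Cd36, at a median of 1.96 CPM against 9.30, stood at −2.06 (SE 0.28). Cd36 fell under the filter on low counts in cells of exactly 1 class, and the endothelial markers had a median of 31.2 CPM with Pi16 and Dpp4 and 55.3 CPM without. Lpl differed by −0.31 (95% interval −0.75 to 0.12, adjusted p = 0.26).

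Of the 6 members 5 passed in that split, where 36% of 11451 genes did. The 8 macrophage markers had a median of 46.5 CPM (range 19.3 to 218) in the Pi16/Dpp4 fibroblasts and 271 CPM (5.74 to 1357) in the others, the 8 VSMC markers 1714 CPM (444 to 11147) and 5482 CPM (1222 to 13282), and their part was not tested. The 8 heart muscle markers stood at 15.7 CPM (0 to 26.4) and 76.4 CPM (21.9 to 710.2), and the 8 fat markers at 10.97 CPM (3.78 to 16.8) and 33.7 CPM (19.5 to 269). Without cells holding heart muscle or fat markers, Lrp1 stood at 0.48 (SE 0.04), Abca1 at 0.59 (SE 0.10), Apoe at −0.73 (SE 0.11) and Vldlr at −0.30 (SE 0.10). Of the 68 listed lipid genes tested, 17 were higher and 18 lower with Pi16 and Dpp4 (median −0.02, all genes −0.03), and of the 11 of fatty acid uptake and storage 0 were higher and 7 lower (median −0.67). Clu, an apolipoprotein also called apolipoprotein J, stood at −1.69 (SE 0.13), Sorl1 at −1.24 (SE 0.12) and the fatty acid transporter Slc27a1 at −0.96 (SE 0.07), while Pltp stood at 1.14 (SE 0.11).

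**Figure D4:**
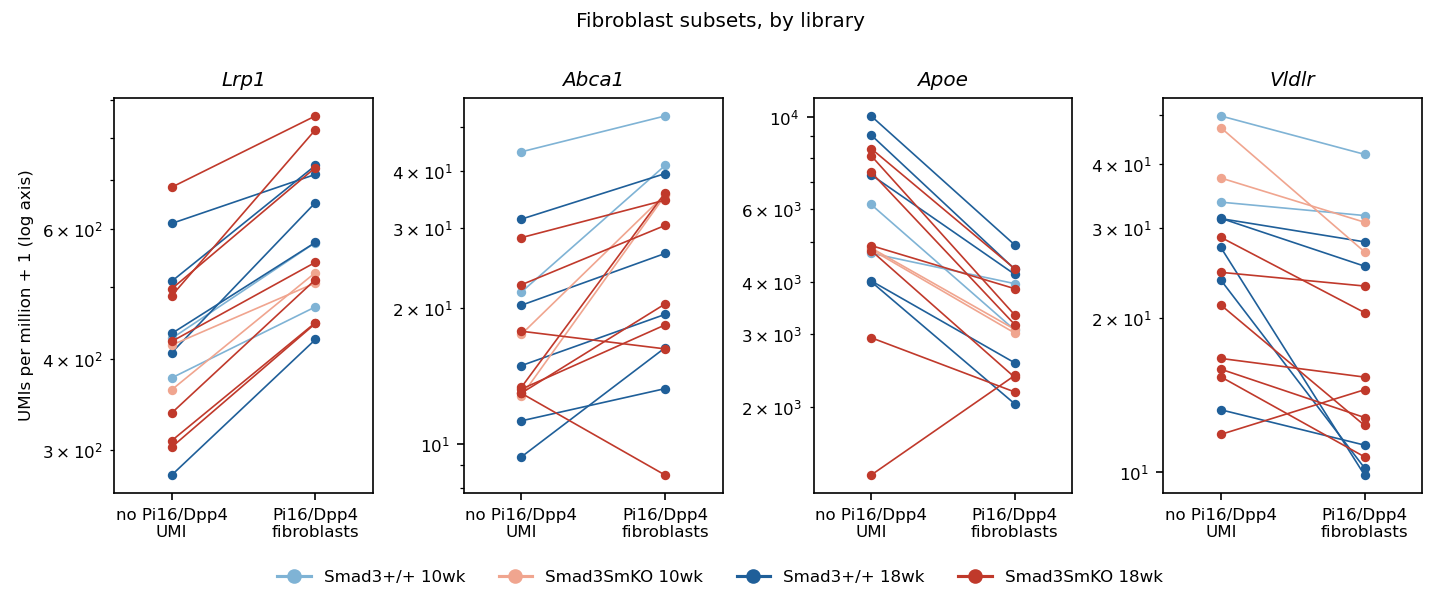
Each panel plots the CPM of 1 member, plus 1, on a log axis, in fibroblasts without a Pi16 or Dpp4 UMI and with at least 2 of the pair, with a line joining the 2 values of each library. Lrp1 rises in 16 of 16 libraries and Abca1 in 14, and Apoe and Vldlr fall in 15 each.

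Among leukocytes, C1q macrophages were set against the other leukocytes (1479 cells, 831 of them neutrophils). Apoe stood at 2652, 5469 and 10620 CPM in C1q macrophages and 48.6, 628 and 1304 CPM in the others over 15 libraries, with no overlap, a log2 difference of 3.12 (SE 0.32, adjusted p = 7.6e-08, edgeR's quasi-likelihood test). Abca1 stood at 13.9, 69.8 and 133 CPM against 0, 12.9 and 21.2 CPM, higher in 14 of 15 libraries, by 1.98 (SE 0.32, adjusted p = 3.4e-05). Cd36 was higher by 0.84 (SE 0.28, adjusted p = 0.021), at 0.70 with an adjusted p of 0.081 in cells of exactly 1 class.

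Lpl differed by 0.67 (SE 0.27, adjusted p = 0.054, edgeR's quasi-likelihood test) over all leukocytes and by 1.15 (SE 0.34, adjusted p = 0.0094) in cells of exactly 1 class. Lrp1 turned with the same choice, from −0.28 (95% interval −0.63 to 0.08) to 1.11 (SE 0.25, adjusted p = 8.9e-04). In those cells 44.9% of 4597 genes passed. The other leukocytes held a median of 3075 CPM of the fibroblast markers (range 1629 to 9358) against 1223 CPM (361 to 2985) in C1q macrophages when cells of several classes were kept. Of the 5 members tested 3 passed over all leukocytes, where 41.9% of 5611 genes did. Of the 39 listed genes tested, 16 were higher and 7 lower in C1q macrophages (median 0.15, all genes −0.01), among them the scavenger receptor Stab1 at 4.94 (SE 0.35), the endocytic adaptor Dab2 at 3.11 (SE 0.24), Pltp at 2.91 (SE 0.21) and Dgat1, which makes triglyceride, at −3.10 (SE 0.29).

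The genotype comparison asked whether the members responded to loss of Smad3 in VSMCs. In VSMCs, fibroblasts, Pecam1/Cdh5 cells, leukocytes and C1q macrophages, 0 of 87 member tests passed by edgeR's quasi-likelihood test with batch as a term, counting 10 weeks, 18 weeks and the change between them, and 1 had an unadjusted p under 0.05. In VSMCs of 18 weeks 0.0422% of 11852 genes passed and for the difference between times 0.00844%, which is 5 genes and 1 gene, and 582 and 305 genes had an unadjusted p under 0.05. At 10 weeks in VSMCs, and at every time in the other 4 classes, 0% of genes passed, with 119 to 427 genes at an unadjusted p under 0.05. By DESeq2 0 of 87 member tests passed and 2 had an unadjusted p under 0.05.

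Lrp1 in VSMCs of 10 weeks was 233 and 131.5 CPM in Smad3+/+ and 151 and 144 CPM in Smad3SmKO libraries. At 18 weeks it was 76.4, 110, 126, 158 and 166 CPM in the 5 Smad3+/+ libraries, and 93.4, 139 and 175 CPM at the lowest, median and highest of the 7 Smad3SmKO libraries. The groups overlapped at both times. The log2 difference, Smad3SmKO minus Smad3+/+, was −0.26 (95% interval −0.70 to 0.18) at 10 weeks and 0.17 (−0.15 to 0.49) at 18 weeks. Within the 4 batches of 18 weeks that held both genotypes it ran from −0.03 to 0.34 and was above 0 in 3.

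Vldlr in VSMCs was 94.9 and 93.6 CPM in Smad3+/+ and 80.4 and 83.3 CPM in Smad3SmKO libraries of 10 weeks, which did not overlap. At 18 weeks it was 51.9, 109, 77.7, 74.5 and 58.3 CPM in Smad3+/+, replicates 1 to 5, and 29.3, 52.8 and 130 CPM at the lowest, median and highest in Smad3SmKO, which did. The log2 differences were −0.18 (95% interval −0.73 to 0.36) and −0.04 (−0.47 to 0.39). The 18-week interval bounds the change in Vldlr to under 1 on the log2 scale in either direction.

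Abca1 and Apoe did not pass in VSMCs of 18 weeks. Abca1 was 3.77, 3.41, 8.48, 3.25 and 2.75 CPM in Smad3+/+, replicates 1 to 5, and 2.17, 4.05 and 14.2 CPM at the lowest, median and highest in Smad3SmKO, a difference of 0.64 (95% interval −0.14 to 1.43). Apoe was 173, 460, 194, 141 and 95.7 CPM in Smad3+/+ and 60.0, 167 and 644 CPM in Smad3SmKO, a difference of 0.40 (−0.08 to 0.89). Both groups overlapped in both genes. Cd36 and Lpl had wider intervals, −1.99 to 2.43 and −0.71 to 1.17. In cells of exactly 1 class the differences were 0.39 for Abca1, 0.42 for Apoe, 0.61 for Lpl (−0.30 to 1.51) and 1.91 for Cd36 (−0.17 to 3.98), and none of these 4 passed.

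In fibroblasts Lrp1 differed by −0.03 (95% interval −0.46 to 0.41) at 10 weeks and 0.09 (−0.19 to 0.38) at 18 weeks. The Cre is driven by a smooth muscle promoter, but the fibroblast rule allows some Myh11. The class held a median of 2373 CPM of the 8 VSMC markers (654 to 13021), and deletion in it was not tested. Abca1 was 51.5 and 34.6 CPM in Smad3+/+ and 29.2 and 30.9 CPM in Smad3SmKO fibroblasts of 10 weeks. At 18 weeks it was 14.2, 24.6, 37.3, 12.1 and 17.8 CPM in Smad3+/+ and 11.6, 18.1 and 33.5 CPM at the lowest, median and highest in Smad3SmKO. The groups did not overlap at 10 weeks and did at 18 weeks. The differences were −0.51 (−1.16 to 0.15) and 0.41 (−0.01 to 0.83), and the change between times was 0.91 (0.14 to 1.69, unadjusted p = 0.025, adjusted p = 1 by edgeR's quasi-likelihood test).

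Counting the 6 members in 5 classes, the genotype groups did not overlap in 12 of 30 cases at 10 weeks, with 2 libraries each, where 27.8% of all gene and class cases did not, and in 0 of 30 at 18 weeks, where 0.0975% did not. For Cd36 in the Pecam1/Cdh5 cells of 18 weeks the fitted difference was 0.51 (95% interval −0.27 to 1.30). Within batches the difference in mean log2 of CPM plus 1 ran from 0.03 to 1.00. In batch 6, the lowest, the mean CPM was lower in Smad3SmKO (503 in 1 library) than in Smad3+/+ (556 over 2 libraries). In the endothelium, cells of exactly 1 class, the fitted Cd36 difference at 18 weeks was 0.29 (95% interval −0.13 to 0.71). The endothelial markers of the Pecam1/Cdh5 cells had an 18-week median of 1469 CPM (442 to 1701) in Smad3SmKO. In Smad3+/+ it was 1012 CPM (714 to 1828). The part of this make-up in the Cd36 difference was not tested. Of the 83 listed lipid genes, between 59 and 74 were tested per class and 0 passed at either time or between times. At 18 weeks the median difference of the list was −0.06 in VSMCs and 0.05 in fibroblasts, beside −0.01 and 0.01 for all genes.

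**Figure D5:**
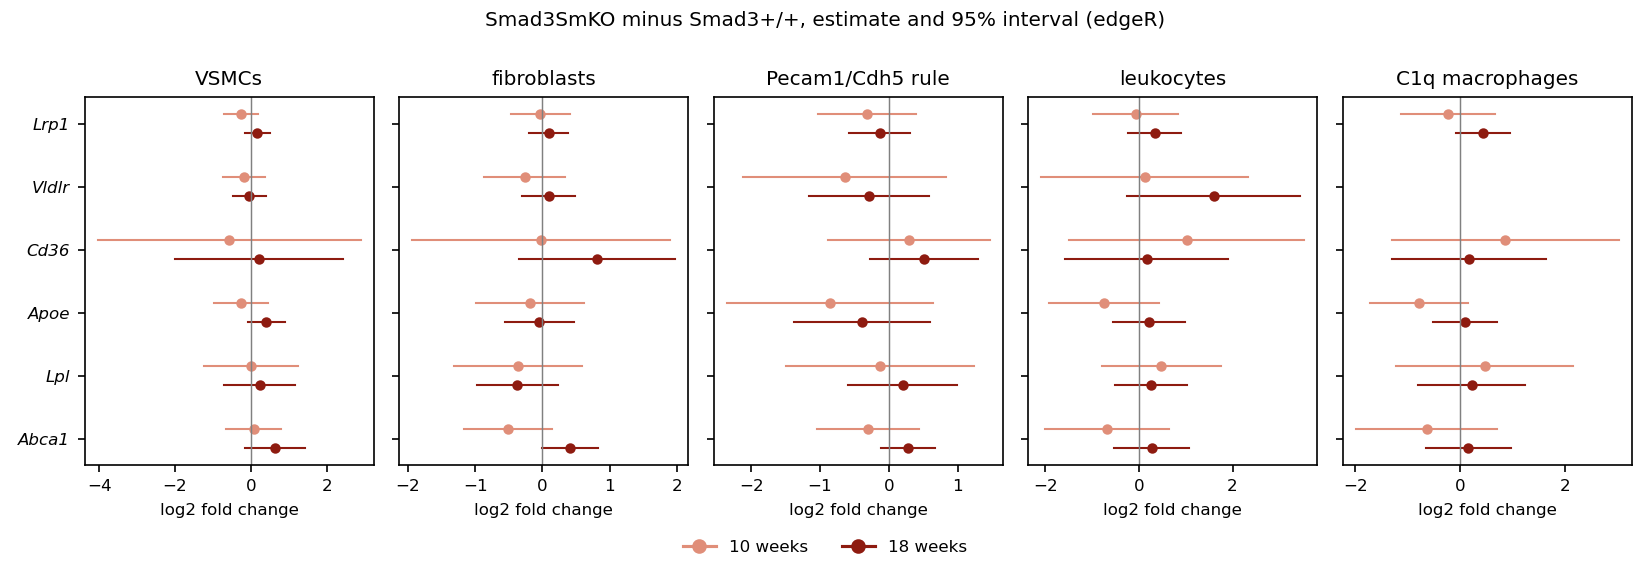
Each panel plots, for 1 class, the log2 fold change of Smad3SmKO over Smad3+/+ on a linear axis for each member, with bars for the 95% interval from edgeR, at 10 and at 18 weeks. Every interval crosses 0, and Vldlr was not tested in C1q macrophages.

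Digestion time differed among the 18-week libraries, 30 min in 7 and 60 min in 5, and did not vary within a batch (30 min in batches 1, 2 and 3, 60 min in batches 5 and 6). The test below treats libraries of a batch as independent, so its p-values and counts of genes may be too favourable, and digestion time and batch cannot be told apart. In VSMCs Lrp1 was 76.4, 110 and 143 CPM at the lowest, median and highest with 30 min and 119, 159 and 175 CPM with 60 min, with overlap. The log2 difference, 60 minus 30 min, was 0.65 (SE 0.15, adjusted p = 0.025, edgeR's quasi-likelihood test with genotype as a term), and it was the 1 member of 6 that passed, where 3.29% of 11058 genes did. Lpl in VSMCs was 10.9, 19.9 and 29.2 CPM with 30 min and 3.54, 6.18 and 14.6 CPM with 60 min, at −1.37 (SE 0.38, adjusted p = 0.053). Lrp1 no longer passed without Smad3+/+ 18wk replicate 2, 4 or 5, at 0.65, 0.66 and 0.62.

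The VSMC subsets moved with digestion. Ptprz1/Tes VSMCs were 14.6%, 20.3% and 35.1% of VSMCs at the lowest, median and highest with 30 min and 40.4%, 60.3% and 62.9% with 60 min, without overlap. Notch3/Enpep VSMCs were 11.5%, 30.9% and 62.5% and then 5.02%, 5.83% and 14.97%. Lrp1 was higher in the Ptprz1/Tes and Lpl in the Notch3/Enpep subset, and the part of subset make-up in the digestion difference was not tested. No member passed between digestion times in fibroblasts, Pecam1/Cdh5 cells or leukocytes, where 1.71%, 2.85% and 6.81% of genes did, with 2962, 2118 and 2363 genes at an unadjusted p under 0.05.

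The genes most like each member were found by Pearson correlation of log2 of CPM plus 1 over 64 sums, 16 libraries in 4 classes, among 12059 genes. The classes here were as ruled, with the Pecam1/Cdh5 cells in place of the endothelium. The part of cells that also met the fibroblast rule in these values was not tested. The points share libraries and the contrast between classes, so the values are a description. Lrp1 was closest to Matn2 (0.906), Slc44a1 (0.905) and Mmp2 (0.903), and Vldlr to Sema5a (0.955), Gucy1a1 (0.937) and Samd4 (0.919). Cd36 was closest to Cd300lg (0.938), Tspan13 (0.912) and Itga6 (0.905), and Apoe to Icosl (0.932), Ptger4 (0.929) and Cmtm3 (0.928). Lpl was closest to Sept11 (0.904), Nrp1 (0.892) and Sri (0.890), and Abca1 to Marcks (0.886), Man1a (0.882) and Ifi203 (0.869). Among the members, Apoe and Abca1 correlated at 0.824, Apoe and Lpl at 0.809, and Vldlr and Apoe at −0.637.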

How the data were processed

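Per the labels, UMI counts were made from 10x 3′ v3 libraries with Cell Ranger 6 on mm10 with GFP added, and Seurat 4 was used, while the file headers name Cell Ranger 4.0.0. The deposited counts were raw. The limits of the study (600 to 6000 genes, 2000 to 50000 UMIs, mitochondrial share below 25%) chose the cells. No doublet caller was run. Counts were summed per library and class where at least 10 cells were present. The main test was edgeR 4.0.16 (R 4.3.3) quasi-likelihood over all genes passing its filter on low counts, with Benjamini-Hochberg adjustment at 0.05. Genotype was fitted with batch, classes and subsets with the library as a block, and digestion with genotype. DESeq2 1.42.0 was an alternative. CPM used library sums, with 1 added before logs. Genes named from the lipid list were those with the smallest p, at most 5 per comparison. The members and lists were chosen with earlier results of these data known. Scripts were tested on simulated data. Shares and sums carry counting error, and single-cell UMIs are not independent between cells of a mouse. Total UMIs per library ranged from 12539539 to 52843031.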

Additional observations from a re-analysis of the deposited data

Results flagged for a closer look

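A library stood apart from its group, by Dixon's 95% critical value, in 13 of 72 member, class and group sets, where 1 in 20 is 3.6. The rule assumes normal values and independent sets. Here some sets share cells, the groups mix batches, and every outlying library was the highest of its group. So 3.6 is not a fair measure of chance, and the flags are a description. In VSMCs Abca1 was 8.48 CPM in Smad3+/+ 18wk replicate 3, on 6 UMIs, against 2.75 to 3.77 CPM in the other libraries of its group. Apoe was 460 CPM in VSMCs of Smad3+/+ 18wk replicate 2 against 95.7 to 194 CPM, and 644 CPM in Smad3SmKO 18wk replicate 4, on 22 cells, against 60.0 to 251 CPM.

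In the Pecam1/Cdh5 cells Abca1 was 45.5 CPM in Smad3+/+ 18wk replicate 3 against 19.5 to 21.9 CPM, and in the endothelium of the same library Apoe was 912 CPM against 383 to 441 CPM. Lpl was 328 CPM in fibroblasts of Smad3SmKO 18wk replicate 1 against 47.9 to 151 CPM.

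In leukocytes and C1q macrophages of Smad3+/+ 18wk replicate 4, Cd36 was 216 and 282 CPM against 24.2 to 76.9 and 30.3 to 78.7 CPM. In those of Smad3SmKO 18wk replicate 4, Lpl was 373 and 467 CPM against 30.8 to 118 and 27.8 to 127 CPM. Lrp1 in leukocytes was 187.3 CPM in Smad3+/+ 18wk replicate 5 against 81.9 to 112 CPM. Vldlr in leukocytes was 2.84 CPM in the same library, on 7 UMIs, against 0 to 0.585 CPM, and 8.42 CPM in Smad3SmKO 18wk replicate 5 against 0 to 3.62 CPM.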

How the results depend on the processing

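Classes and subsets were compared within libraries. Mice of the 2 genotypes could not be paired, because the labels give no replicate numbers, and those used here only name libraries in accession order. Batch was a term in the genotype fit. Of the single-member values under alternatives other than leaving out a library, 1659 kept their side of the threshold with the same sign or within 1 SE, 42 that passed under neither setting changed sign by more than that, 19 came to pass, 9 ceased to pass and 5 that passed under one setting changed sign. The 5 all came from keeping cells of exactly 1 class: Lrp1 in VSMCs minus Pecam1/Cdh5 cells went to 1.87, Lrp1 in those cells minus leukocytes to −1.39, Lpl in fibroblasts minus those cells to −0.81, Apoe in the Gpihbp1 split to 0.29, and Lrp1 in C1q macrophages minus other leukocytes to 1.11. The cause was not tested.

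Members passing between Notch3/Enpep and Ptprz1/Tes VSMCs rose from 2 to 4 with no filter on low counts, and those in the Gpihbp1 split fell from 5 to 3 with cells of exactly 1 class, where 4 were tested. Between digestion times in VSMCs the count was 1, and 2 by DESeq2, 2 with all deposited barcodes, 2 with thresholds of 10 and 4 UMIs, 3 with no filter and 0 without the libraries against their tracer label. Leaving out 1 library gave 0 to 3 there. In fibroblasts, Pecam1/Cdh5 cells and leukocytes it gave 0 to 1, with 1 only without Smad3SmKO 18wk replicate 6. The cause was not tested. Counts over pairs of classes ran from 29 to 34, and no genotype alternative passed a member.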

Other observations

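Of the Pecam1/Cdh5 cells, 273 held at least 2 UMIs of Lyve1, Prox1 and Mmrn1, genes of lymphatic endothelium, the vessels that return tissue lipoproteins to blood. In the 10 libraries with at least 10 such cells Abca1 stood at 52.9, 77.9 and 190 CPM at the lowest, median and highest library, with a mean of 87.2 ± 39.7 CPM (SD, n = 10), and Vldlr at 0, 1.23 and 14.9 CPM. No test was run on them.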
